A study of Mus musculus with 9 samples.

Results

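AP-1 and immediate early transcription factors were described across undifferentiated, differentiated and lysine-deprived 3T3-L1 cells. The group was a list of 10 genes of the 54532 in the deposited tables, taken by symbol: the Fos family (Fos, Fosb, Fosl1, Fosl2), the Jun family (Jun, Junb, Jund), Atf3, Egr1 and Ier3. Each symbol matched a single gene.

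AP-1 is a dimer of basic leucine zipper proteins that binds DNA at short palindromic elements. In it a Jun protein pairs with a Fos protein, an ATF protein or another Jun protein. Immediate early genes are transcribed within minutes of a signal without new protein synthesis, through MAP kinases, serum response factor (SRF) and cAMP response element binding protein, and their mRNA is usually short-lived. In preadipocytes, Fos, Jun and Egr1 are among the genes that respond first to the adipogenic hormones, and steady levels at later times differ between family members.

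The line studied, 3T3-L1, was derived from mouse embryo fibroblasts and stores lipid droplets once treated with adipogenic hormones, and the labels give its cell type as fibroblast. Poly A RNA was sequenced in 9 libraries, 3 from each of 3 groups. Undifferentiated cells were kept at confluence for 3 days in medium with bovine calf serum. Differentiated cells then received fetal bovine serum, 1 μM dexamethasone, 0.5 mM 3-isobutyl-1-methylxanthine, which raises cAMP, 1 μM rosiglitazone, a PPARγ agonist, and 10 μg/mL insulin in a medium with added lysine, and RNA was taken at the end of the differentiation period. Lysfree cells received the same medium with no lysine added, which by the study's own measurement still held traces of it. Both of the latter groups shared the hormones, the change of serum and a change of basal medium to one with arginine added back. The parts of the medium, and any difference in time in culture, cannot be told apart in a comparison with Undifferentiated cells. The sources used here do not say whether the libraries of a group came from separate cultures, and p-values then measure only the spread between these samples, which may be technical.

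Counts on genes summed to between 15880144 and 21806693 per library. Levels are given as the deposited FPKM, fragments per kilobase of gene scaled to the library total, and the differences between groups were tested on the deposited counts with edgeR's quasi-likelihood test over all genes. A gene was called higher or lower at an adjusted p under 0.05 and a change of at least 2-fold. In the comparison of Differentiated with Undifferentiated cells, edgeR shrank the spread of each gene wholly to the trend over genes, and the p-values there are very small for 3 libraries a group. The summed level of 8 adipocyte markers was 314 to 395 FPKM in Undifferentiated, 6890 to 7250 in Differentiated and 292 to 408 in Lysfree libraries, and that of 7 preadipocyte fibroblast markers was 4040 to 4390, 1020 to 1030 and 1530 to 1580 FPKM. Summed markers of leukocytes (5 genes), endothelial cells (3 genes) and epithelial cells (3 genes) stayed at or below 0.382, 0.188 and 0.603 FPKM in every library. Of the leukocyte markers, Itgam and Adgre1 were at 0 in all libraries, Ptprc and Cd3e had at most 1 count and Cd79a at most 10. Single adipocyte and preadipocyte markers did not all follow their sums in mean level from Undifferentiated to Lysfree cells. Among adipocyte markers, Cd36 (16.6 to 72.7 FPKM) and Lpl (146 to 188 FPKM) rose and the others fell, Adipoq from 57.8 to 4.18 FPKM. Among preadipocyte markers, Thy1 (70.4 to 89.1 FPKM) was higher and Vim (602 to 607 FPKM) showed no difference, with overlapping libraries. The others were lower. In these bulk samples, fewer cells of a type and less RNA per cell cannot be told apart. Lysfree 1 stood apart from the other Lysfree libraries, with lower values for genes of high GC content, and members' results that rest on it are given with and without it.

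Stretches upstream of the transcription start were read for the members whose RefSeq promoter table (GRCm38.p6) held an entry, 8 of the 10, since several of these genes are textbook cases of short control elements close to the start. Fosl1 and Egr1 had no entry. In the 250 bases upstream, the letters searched on both strands were TGACGTCA (the cAMP response element), TGACG (the core of that element, which also lies inside TGACGTCA), TGACTCA (the AP-1 element), TGACATCA (a Jun and ATF element), TTGCATCA (a C/EBP-ATF element), the CArG box bound by SRF, TATAAA and GCGTGGGCG (the EGR element). Bases 110 to 11 upstream of the start of 4 members that held such letters there are shown 5′ to 3′, with the matches in capitals: Fos from chr12:85473780-85473879 on the plus strand, Fosb from chr7:19310056-19310155, Jun from chr4:95052233-95052332 and Atf3 from chr1:191183344-191183443, the last 3 on the minus strand. The RefSeq start used for Atf3 is an internal one, 34706 bases inside the outer end of the gene as the deposited table gives it.
Fos: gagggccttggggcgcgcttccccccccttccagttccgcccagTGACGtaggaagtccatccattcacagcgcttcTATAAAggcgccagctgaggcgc
Fosb: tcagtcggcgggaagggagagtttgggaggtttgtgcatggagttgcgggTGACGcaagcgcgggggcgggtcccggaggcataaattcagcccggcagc
Jun: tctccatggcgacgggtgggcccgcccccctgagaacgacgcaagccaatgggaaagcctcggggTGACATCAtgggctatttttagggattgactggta
Atf3: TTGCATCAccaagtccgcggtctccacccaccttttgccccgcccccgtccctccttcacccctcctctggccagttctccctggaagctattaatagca

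In Fos the core TGACG lay at bases -66 to -62 and again, further out, at -129 to -125, and TATAAA at -33 to -28, counted from the start site. TGACG was at -60 to -56 in Fosb, at -106 to -102 in Junb and, on the opposite strand, at -7 to -3 in Atf3. TGACATCA was at -45 to -38 in Jun, and TTGCATCA at -110 to -103 in Atf3. Of 32851 promoters of the same length, 17.8% held TGACG, 12.4% TATAAA, 4.46% TGACTCA, 2.93% TGACATCA, 1.55% TGACGTCA, 1.47% a CArG box, 0.791% TTGCATCA and 0.536% GCGTGGGCG. None of these letters were found in the windows of Fosl2, Jund and Ier3, and a match is a description, not a shown binding site. The RefSeq start of Fosl2 lay 671 bases inside the deposited gene, and that of Jund (70697739) upstream of its deposited start (70698949). The windows of these genes therefore do not border the deposited starts.

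Against Undifferentiated cells, Differentiated cells had 5 of the 10 genes called higher (Fos, Fosl1, Jun, Atf3 and Ier3) and none called lower, where 10.4% of all genes tested were called higher and 11.4% lower (21.8% in either direction). Without lysine, 3 of the 10 were called higher than in Undifferentiated cells (Fosl1, Atf3 and Ier3; background 5.52%) and 3 lower (Fos, Fosb and Egr1; background 8.76%). Lysfree cells compared with Differentiated cells had 6 of the 10 called lower (Fos, Fosb, Fosl1, Jun, Egr1 and Ier3), where 10.5% of all genes were called lower, and none called higher, where 8.14% were. Under the adjusted p alone, at any fold, 9, 8 and 8 of the 10 genes passed in the 3 comparisons, where 46.1%, 35.1% and 38.5% of all genes did. The FPKM of the 2 groups did not overlap for 9, 7 and 8 of the 10 genes in the 3 comparisons, against 50.9%, 43.5% and 46.6% of all genes tested. All of these shares include genes with very few counts, which can hardly pass, and were not matched to the members by level. Under edgeR's expression filter, 4488 of 13869 genes were called in Differentiated against Undifferentiated cells (5329 of 24402 without it), with the same 5 members. The median log2 fold change of the 10 genes was 0.88, 0.43 and -1.22, beside 0.02, -0.02 and -0.06 over all genes tested. Each group serves in 2 of the comparisons, so the comparisons share libraries and are not independent of one another.

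**Figure D1:**
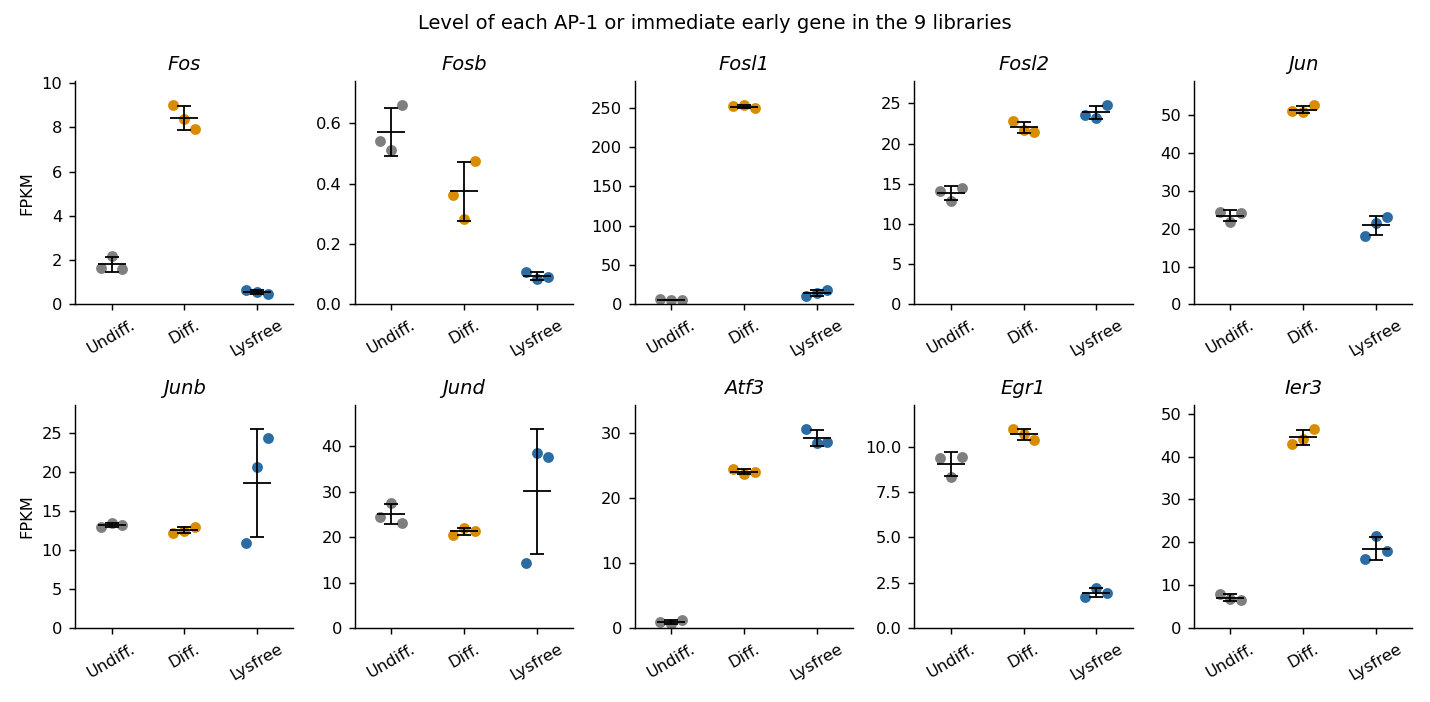
Level of each of the 10 genes in FPKM (vertical axes, linear from 0, scaled per gene) in the 3 Undifferentiated, 3 Differentiated and 3 Lysfree libraries. Points are libraries and bars mark the mean with its SD. Fosl1 stood at 249 to 253 FPKM in Differentiated libraries against at most 18.3 FPKM elsewhere, and Lysfree 1 was the lowest Lysfree library for Junb and Jund.

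Fosl1, which encodes FRA1, a Fos protein without the transactivation domain of c-Fos, had the largest change of the 10 genes in the first comparison. It lies on chromosome 19 (ENSMUSG00000024912, 5447703 to 5455945, plus strand, build mm10, as are all gene positions here). Undifferentiated libraries held 6.35, 5.26 and 5.45 FPKM, Differentiated libraries 252, 253 and 249 FPKM, and Lysfree libraries 10.9, 14.8 and 18.3 FPKM. The groups did not overlap in any pair, with Differentiated cells far above and Lysfree cells a little above Undifferentiated cells. Fosl1 rose 43.3-fold in Differentiated cells (log2 fold change 5.43 ± 0.07 SE, an adjusted p that underflowed to 0 in edgeR) and 2.67-fold in Lysfree cells (1.41 ± 0.16, edgeR adjusted p = 1.1e-08). Between the differentiation media it was 16.4-fold lower without lysine (-4.03 ± 0.14, edgeR adjusted p = 2.4e-15), and -3.88 when Lysfree 1 was left out.

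Fos (ENSMUSG00000021250, chromosome 12, 85473890 to 85477273, plus strand), the founding member of the family, lay on opposite sides of the Undifferentiated level in the media with and without lysine. Its level was 1.64, 2.21 and 1.62 FPKM in Undifferentiated, 9.01, 8.36 and 7.92 FPKM in Differentiated, and 0.653, 0.557 and 0.482 FPKM in Lysfree libraries. Every Differentiated library was above, and every Lysfree library below, all Undifferentiated libraries. Fos rose 4.50-fold in Differentiated cells (log2 fold change 2.17 ± 0.13, edgeR adjusted p = 6.1e-60) and was 3.13-fold lower in Lysfree than in Undifferentiated cells (-1.65 ± 0.27, edgeR adjusted p = 4.8e-06). The direct comparison of Lysfree with Differentiated cells gave a 14.3-fold lower level (-3.83 ± 0.18, edgeR adjusted p = 3.8e-13). With limma on log2(FPKM + 1) the difference between Lysfree and Undifferentiated cells was -0.85, under 2-fold and not called. The Lysfree values rest on 22 to 27 counts a library, against 301 to 366 in Differentiated libraries.

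Fosb (ENSMUSG00000003545, chromosome 7, 19302696 to 19310051, minus strand), the close relative of Fos, was the lowest of the 10 genes in every group. It measured 0.541, 0.511 and 0.660 FPKM in Undifferentiated, 0.362, 0.284 and 0.476 FPKM in Differentiated, and 0.109, 0.0840 and 0.0908 FPKM in Lysfree libraries. The 3 groups stood in that order without overlap. Fosb was lower in Lysfree cells than in Undifferentiated cells by 5.78-fold (log2 fold change -2.53 ± 0.31, edgeR adjusted p = 4.5e-08) and than in Differentiated cells by 3.74-fold (-1.90 ± 0.34, edgeR adjusted p = 9.2e-05). The difference between Differentiated and Undifferentiated cells (-0.63 ± 0.23, edgeR adjusted p = 0.014) was less than 2-fold and not called. With limma on log2(FPKM + 1) both Lysfree differences were under 2-fold, at -0.52 and -0.33, and neither was called. At 10 to 12 counts a library, the Lysfree level of Fosb is the least precise of the values given.

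Fosl2 (ENSMUSG00000029135, chromosome 5, 32135801 to 32157842, plus strand) encodes FRA2, and its level varied less than that of the other Fos genes. Undifferentiated libraries held 14.1, 12.9 and 14.5 FPKM, Differentiated libraries 22.8, 21.7 and 21.5 FPKM, and Lysfree libraries 23.6, 23.2 and 24.8 FPKM. Both differentiation media gave values above all Undifferentiated libraries, at log2 fold changes of 0.64 ± 0.06 (edgeR adjusted p = 2.7e-30) with lysine and 0.83 ± 0.10 (edgeR adjusted p = 1.5e-08) without it, each under 2-fold. Lysfree and Differentiated libraries did not overlap but differed by only 0.18 ± 0.08 (edgeR adjusted p = 0.1), which did not pass the test.

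Per length, the 4 Fos genes summed to 21.9 ± 0.889 FPKM (SD, n = 3) in Undifferentiated, 282 ± 2.65 FPKM in Differentiated and 39.2 ± 4.23 FPKM in Lysfree cells. Fosl2 held the largest share of that sum in Undifferentiated cells (63.1% ± 1.87) and in Lysfree cells (61.2% ± 5.10), and Fosl1 held 89.1% ± 0.346 of it in Differentiated cells. Fosl1 otherwise made up 25.9% ± 1.91 and 37.1% ± 5.55 in Undifferentiated and Lysfree cells. The share of Fos was 8.37% ± 1.93 in Undifferentiated, 2.99% ± 0.168 in Differentiated and 1.46% ± 0.376 in Lysfree cells, and that of Fosb stayed at or below 2.97% in every library. In FPKM the order of the Fos genes was thus Fosl2, Fosl1, Fos, Fosb in Undifferentiated and Lysfree cells and Fosl1, Fosl2, Fos, Fosb in Differentiated cells, and no neighbours in these orders overlapped within a group. The shares are a description of the mRNA and were not tested.

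**Figure D2:**
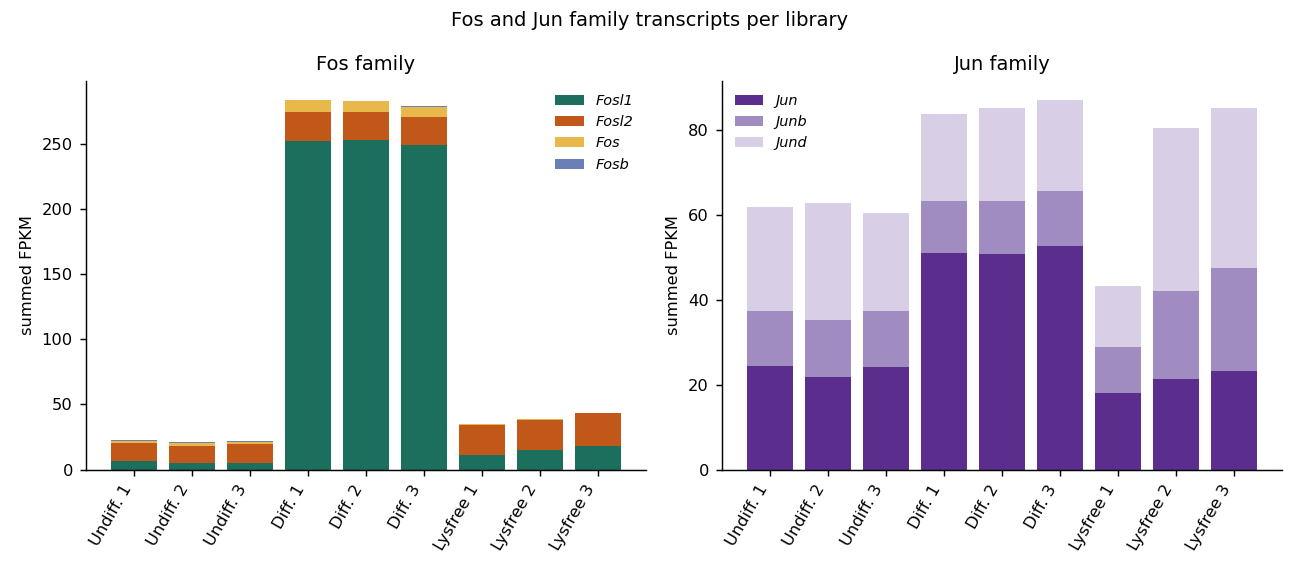
Summed FPKM of the 4 Fos genes and of the 3 Jun genes (vertical axes, linear from 0) in each of the 9 libraries, stacked by gene. The Fos family sum was 279 to 284 FPKM in Differentiated libraries, most of it Fosl1, against at most 43.7 FPKM in the others, and the Jun family sum ran from 43.3 FPKM in Lysfree 1 to 87.2 FPKM.

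The Jun genes, whose products are the usual partners of the Fos proteins, had smaller log2 fold changes than Fosl1 and Fos. Jun (ENSMUSG00000052684, chromosome 4, 95049034 to 95052222, minus strand) was at 24.4, 21.8 and 24.1 FPKM in Undifferentiated, 51.0, 50.8 and 52.7 FPKM in Differentiated, and 18.1, 21.4 and 23.2 FPKM in Lysfree libraries. Differentiated libraries were above all others, while Lysfree and Undifferentiated libraries overlapped. Jun rose 2.16-fold in Differentiated cells (log2 fold change 1.11 ± 0.06, edgeR adjusted p = 1.5e-76) and was 2.35-fold lower in Lysfree than in Differentiated cells (-1.23 ± 0.10, edgeR adjusted p = 1.9e-09), whereas the difference of Lysfree from Undifferentiated cells was -0.12 ± 0.11 (edgeR adjusted p = 0.47). The rise lay close to the 2-fold threshold: in a test against a 2-fold change the edgeR adjusted p was 0.055. An antisense gene, Junos, overlaps Jun by 689 bases and had 6 to 42 counts a library.

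Junb (ENSMUSG00000052837, chromosome 8, 84974484 to 84978718, minus strand), often a weaker activator that competes with c-Jun, had its widest spread within Lysfree cells. Undifferentiated libraries held 12.9, 13.5 and 13.2 FPKM, Differentiated libraries 12.2, 12.4 and 13.0 FPKM, and Lysfree libraries 10.9, 20.6 and 24.3 FPKM. Lysfree 1 was below, and Lysfree 2 and 3 were above, every library of the other groups. No comparison of Junb was called, at log2 fold changes of -0.09 ± 0.09 for Differentiated against Undifferentiated, 0.55 ± 0.17 for Lysfree against Undifferentiated and 0.63 ± 0.19 for Lysfree against Differentiated cells (edgeR adjusted p = 0.39, 0.0097 and 0.01). Without Lysfree 1 the last 2 values were 0.79 and 0.88 (edgeR adjusted p = 2e-18 and 5.7e-30), still under 2-fold. Junb overlaps the coding gene Prdx2 on the opposite strand by 351 bases, Prdx2 had 2323 to 4310 counts a library, and the strand setting of the counting is not given in the sources used here, so the level of Junb is uncertain.

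Jund (ENSMUSG00000071076, chromosome 8, 70698949 to 70700616, plus strand), the Jun gene known for steady expression in resting cells, was split within Lysfree cells in the same way. Its level was 24.5, 27.5 and 23.2 FPKM in Undifferentiated, 20.5, 22.0 and 21.5 FPKM in Differentiated, and 14.3, 38.6 and 37.6 FPKM in Lysfree libraries. Again Lysfree 1 was the lowest of all 9 libraries, and Lysfree 2 and 3 were the highest. The log2 fold changes were -0.26 ± 0.08, 0.32 ± 0.19 and 0.57 ± 0.22 in the same order of comparisons (edgeR adjusted p = 0.0022, 0.23 and 0.051), none of them called. Leaving out Lysfree 1 gave 0.62 and 0.88 for Lysfree against Undifferentiated and against Differentiated cells (edgeR adjusted p = 6.7e-14 and 1.2e-35).

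Junb and Jund are rich in GC, and Lysfree 1 differed from the other Lysfree libraries by GC content across genes. Over 12276 genes with a mean of at least 1 CPM (TMM-normalized counts scaled to the library) in Lysfree cells whose longest transcript had a GC value (99.9% of such genes), the median log2 ratio of Lysfree 1 to the mean of Lysfree 2 and 3, in CPM + 0.5, went from 0.40 in the lowest of 10 equal bins of GC (28.3% to 41%) to -0.38 in the highest bin (57.7% to 78.3%). Jund (67.1% GC), Junb (62.6%) and Fosl1 (58.5%) were in the highest bin, with log2 ratios of -1.39, -1.03 and -0.58, which is 38.2%, 49.1% and 67.0% of the mean of the other libraries on that scale, and each below the median of their bin. The other 7 genes, at 51.9% to 57.3% GC, had ratios of -0.29 to 0.25. The part of GC content in the values of Junb, Jund and Fosl1 was not tested.

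**Figure D3:**
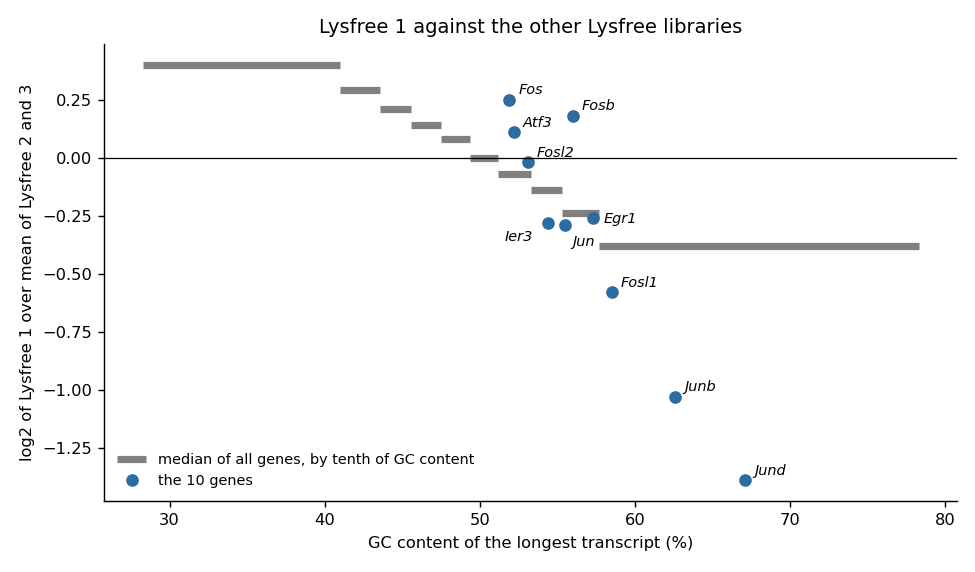
Log2 ratio of CPM + 0.5 in Lysfree 1 to the mean of Lysfree 2 and 3 (vertical axis) against the GC content of the longest transcript in percent (horizontal axis) for the 10 genes (points), with the median of all expressed genes in each of 10 equal bins of GC content (grey bars, drawn over the range of GC in that bin). The medians fall from 0.40 to -0.38, and Junb and Jund lie at -1.03 and -1.39.

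The 3 Jun genes summed to 61.7 ± 1.15 FPKM in Undifferentiated, 85.4 ± 1.76 FPKM in Differentiated and 69.7 ± 22.9 FPKM in Lysfree cells, the last with a range of 43.3 to 85.1 FPKM. Jun held 60.3% ± 0.656 of the sum in Differentiated cells, against 38.0% ± 2.89 in Undifferentiated cells, where Jund held 40.6% ± 2.82 and the levels of Jun and Jund overlapped. In Lysfree cells Jund held 41.7% ± 7.70, Jun 31.9% ± 8.67 and Junb 26.4% ± 1.84, and without Lysfree 1 these shares were 46.1%, 26.9% and 27.0%.

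Atf3 (ENSMUSG00000026628, chromosome 1, 191170296 to 191218039, minus strand), a stress-responsive ATF protein that dimerizes with Jun proteins and is also a target of ATF4 in the amino acid response, had the highest fold change of the 10 genes in Lysfree against Undifferentiated cells. Undifferentiated libraries held 0.915, 0.614 and 1.25 FPKM, Differentiated libraries 24.4, 23.7 and 23.9 FPKM, and Lysfree libraries 30.6, 28.4 and 28.6 FPKM. All libraries in differentiation medium, with or without lysine, were far above the Undifferentiated libraries. Atf3 rose 26.2-fold in Differentiated cells (log2 fold change 4.71 ± 0.12, edgeR adjusted p = 6.1e-319) and 33.3-fold in Lysfree cells (5.06 ± 0.17, edgeR adjusted p = 2.7e-21). Lysfree libraries were all above Differentiated libraries, by 0.35 ± 0.10 on the log2 scale (edgeR adjusted p = 0.0061), a difference under 2-fold that was not called.

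Egr1 (ENSMUSG00000038418, chromosome 18, 34859823 to 34864984, plus strand), a zinc finger factor induced through SRF, was lower without lysine than in both other groups. It measured 9.41, 8.31 and 9.44 FPKM in Undifferentiated, 11, 10.7 and 10.4 FPKM in Differentiated, and 1.70, 2.20 and 1.93 FPKM in Lysfree libraries. Lysfree libraries lay far below the others, and Differentiated libraries slightly above the Undifferentiated ones. The level in Lysfree cells was 4.50-fold below that in Undifferentiated cells (log2 fold change -2.17 ± 0.14, edgeR adjusted p = 2e-14) and 5.27-fold below that in Differentiated cells (-2.40 ± 0.13, edgeR adjusted p = 2.5e-12). Differentiated and Undifferentiated cells differed by 0.22 ± 0.08 (edgeR adjusted p = 0.0088), under 2-fold. In a single edgeR fit of all 9 libraries the adjusted p of this difference was 0.12.

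Ier3 (ENSMUSG00000003541, chromosome 17, 35821684 to 35822923, plus strand) encodes a small immediate early protein that modulates survival and ERK signalling and is not itself a DNA-binding factor. Its level was 8.05, 6.69 and 6.63 FPKM in Undifferentiated, 43.0, 44.0 and 46.5 FPKM in Differentiated, and 16.2, 21.5 and 18.0 FPKM in Lysfree libraries. The groups did not overlap, and Lysfree cells stood between the others. Ier3 rose 6.11-fold in Differentiated cells (log2 fold change 2.61 ± 0.10, edgeR adjusted p = 1.7e-159) and 2.69-fold in Lysfree cells (1.43 ± 0.16, edgeR adjusted p = 4.1e-09), and it was 2.29-fold lower in Lysfree than in Differentiated cells (-1.20 ± 0.12, edgeR adjusted p = 5.2e-08). In a test against a 2-fold change this last difference had an edgeR adjusted p of 0.13.

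**Figure D4:**
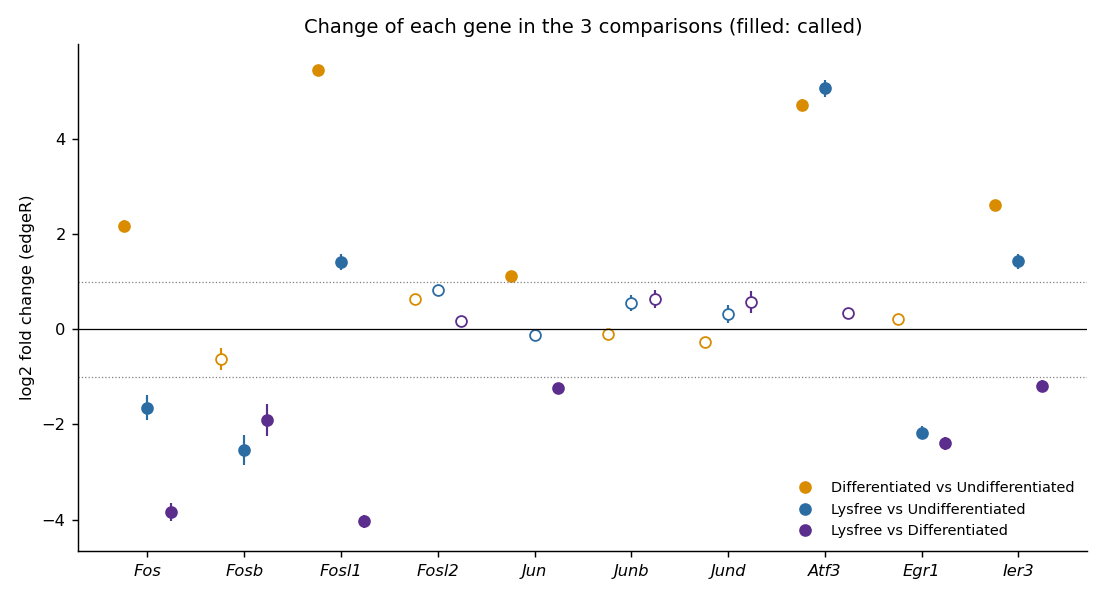
Log2 fold change of the 10 genes (vertical axis) in the 3 comparisons, estimated with edgeR. Bars are 1 standard error, filled points were called, and dotted lines mark a 2-fold change. Fosl1 and Atf3 have the largest values against Undifferentiated cells (5.43 and 4.71 with lysine), Fos changes sign between the media (2.17 and -1.65), and 6 of the genes were called lower in Lysfree than in Differentiated cells.

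The genes thus fell into several orders of group levels. Differentiated cells were highest and Undifferentiated cells lowest for Fosl1 and Ier3. For Fos and Egr1 Differentiated cells were highest and Lysfree cells lowest, although for Egr1 the upper neighbours differed by less than 2-fold. Fosb was highest in Undifferentiated and lowest in Lysfree cells, with the upper neighbours again under 2-fold apart. Jun was highest in Differentiated cells, with no difference shown between the other groups. Atf3 and Fosl2 were lowest in Undifferentiated cells, and their levels in both differentiation media lay within 2-fold. For Junb and Jund no difference reached 2-fold. The adjusted p was nonetheless under 0.05 for Junb in Lysfree against each other group, where the libraries overlapped. It was also under 0.05 for Jund in Differentiated against Undifferentiated cells, but 0.077 in a single edgeR fit of all 9 libraries.

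Over the 9 libraries, the genes whose centred log2(CPM + 1) differed least from each member were found among 14194 candidates, by the root mean square difference, for the 7 members whose group means differed by at least 1. Among the nearest to Fosl1 were Aldh1a7 (0.38) and Peg10 (0.39), against a range of 5.30 in the group means of Fosl1. The nearest to Fos were Adhfe1 (0.11), Pxmp4 (0.15) and Nipsnap1 (0.15). Egr1 was nearest to Camsap3 (0.14), Gamt (0.18) and Ypel3 (0.19), and Ier3 to Pgk1 (0.13), Tob1 (0.14) and Pgam1 (0.15). For Jun they were Timeless (0.07), Ccnl2 (0.08) and Ptgr2 (0.09), and for Fosb Gng7 (0.11), S1pr3 (0.12) and Rnf112 (0.13). Atf3 had no close neighbour, the nearest being Prg4 (0.67), Dusp4 (0.68) and Lcn2 (0.69) against a range of 4.45. These are descriptions over the same 9 libraries, to which the 3 groups contribute most of the variation.

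Other genes of the pathway were counted in lists written by hand, with 154 genes in all. Over all genes tested, 10.4% were called higher and 11.4% lower in Differentiated against Undifferentiated, 5.52% and 8.76% in Lysfree against Undifferentiated, and 8.14% and 10.5% in Lysfree against Differentiated cells. The lists were not tested against these shares or against one another. Without Lysfree 1, all 35 calls of list genes chosen for naming in the Lysfree comparisons were kept, and 2 of them, both of Mmp9, moved by over 1.5-fold. Among 20 dimer partners and related bZIP factors, 1 was called higher and 3 lower in Differentiated than in Undifferentiated cells, with a median log2 fold change of -0.31 (all genes 0.02). Maff, a small Maf protein, rose there from 3.91 ± 0.173 to 30.9 ± 0.856 FPKM (log2 fold change 2.95), and Maf fell (-3.47). In Lysfree against Undifferentiated cells 2 were called higher and 3 lower (median 0.03), the lower ones including Maf (-2.41) and Bach2 (-1.37). Of 19 measured in Lysfree against Differentiated cells, 4 were called higher and 1 lower (median 0.23): Jdp2, a repressor that dimerizes with Jun, was higher at 64.7 ± 20.3 against 15.7 ± 0.666 FPKM (2.11, and 2.33 without Lysfree 1), as was Cebpd (1.30, and 1.48 without Lysfree 1), and Maff was the 1 lower (-1.85). Jdp2 in Undifferentiated cells was at 66.5 ± 2.09 FPKM, and its Lysfree libraries held 41.5, 73.9 and 78.8 FPKM.

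Other immediate early genes went both ways. Of 36 measured, 13 were called higher and 8 lower in Differentiated than in Undifferentiated cells (median 0.21), 8 and 4 in Lysfree than in Undifferentiated cells (median 0.29), and 8 and 10 in Lysfree than in Differentiated cells (median 0.17). Myc was at 11.2 ± 0.398 FPKM in Undifferentiated cells and rose to 63.9 ± 1.85 FPKM with lysine (log2 fold change 2.48) and 61.5 ± 4.12 FPKM without it (2.5). Egr3, a relative of Egr1, fell in Differentiated (-3.06) and in Lysfree cells (-4.67, on 4 to 6 counts a library), and Ptgs2, which encodes cyclooxygenase-2, rose in Lysfree (2.55) and in Differentiated cells (2.39), with a difference of 0.15 between the media that did not pass the test (edgeR adjusted p = 0.43). Arc was at 1.03 ± 0.265 FPKM in Differentiated cells, called higher than the 0.0520 ± 0.0349 FPKM in Undifferentiated and the 0.0283 ± 0.0258 FPKM in Lysfree cells, where it had at most 3 counts. Klf4 fell in Differentiated cells (-1.82) and was 3.41 higher in Lysfree than in Differentiated cells on the log2 scale (3.58 without Lysfree 1), and Plk2 was 2.96 higher.

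Inputs to the immediate early genes and their feedback inhibitors were counted as well. Among 30 MAP kinase and SRF genes, 1 was called higher and 1 lower in Differentiated against Undifferentiated cells (Mapk8, which encodes JNK1, at 1.14, and the SRF partner Elk3 at -1.50; median 0.05), and 2 lower in Lysfree against Undifferentiated cells (Map2k6 at -2.91 and Rps6ka1 at -1.40; median 0.02). Of 29 measured in Lysfree against Differentiated cells, Elk3 was called higher (1.06) and Map2k6 (-2.48) and Rps6ka1 (-2.35) lower, with a median of -0.06. Of 20 feedback inhibitors, which include the dual specificity phosphatases that switch off MAP kinases, 7 were called higher and 2 lower in Differentiated cells (median 0.58), led by Dusp9 (3.66), Dusp4 (3.61) and Dusp1 (3.38). Lysfree against Undifferentiated cells gave 5 higher and 0 lower (median 0.51), with Dusp4 at 3.08, Dusp1 at 1.94 and Dusp8 at 1.44. In Lysfree against Differentiated cells 1 was called higher, Dusp14 (2.15), and 5 lower (median -0.31), including Dusp9 (-4.22) and the ERK pathway inhibitor Spry4 (-3.06).

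AP-1 target genes were called in both directions in about equal number. In Differentiated against Undifferentiated cells 8 of 29 were called higher and 8 lower (median 0.34), in Lysfree against Undifferentiated cells 7 of 28 and 6 (median 0.36), and in Lysfree against Differentiated cells 7 of 29 and 8 (median 9e-04). The matrix metalloproteinases Mmp9 (log2 fold change -3.49) and Mmp14 (-3.45) fell in Differentiated cells, and Mmp9 (-6.24, on 3 to 16 counts a library) and Mmp3 (-4.16) in Lysfree cells. Against Differentiated cells, too, Mmp9 was lower in Lysfree cells (-2.75). Without Lysfree 1, which had 0.257 FPKM against 0.0444 and 0.0728 FPKM in the other Lysfree libraries, the Lysfree values of Mmp9 were -7.29 and -3.80. The cytokine Il6 was higher in Lysfree cells than in Undifferentiated (4.24) and Differentiated cells (3.83), at 4.51 ± 0.794 FPKM against 0.245 ± 0.0522 and 0.328 ± 0.0477 FPKM.

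**Figure D5:**
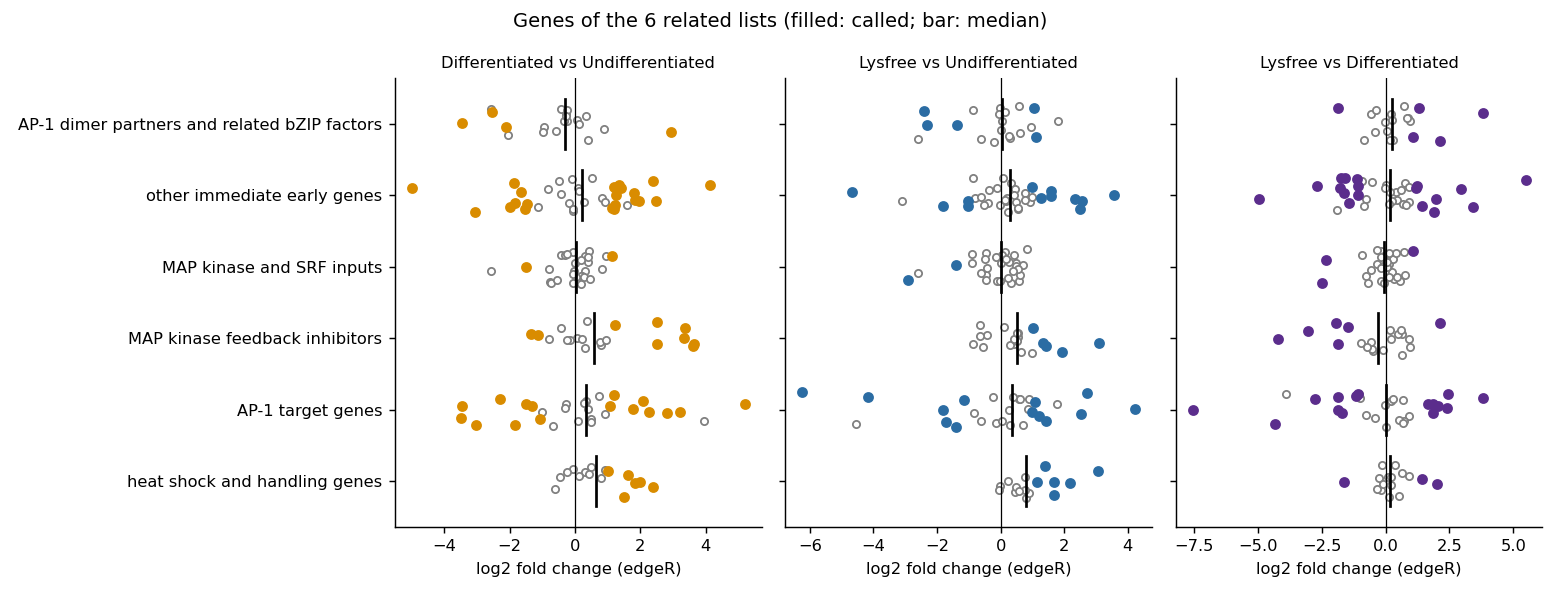
Log2 fold change (edgeR, horizontal axes, each panel with its own range) of the genes in the 6 hand-written lists (rows of points) in the 3 comparisons, 1 point a gene, filled where the gene was called, with a vertical bar at the list median. The medians lie between -0.31 and 0.79, while single genes lie far from them, such as Il6 at 4.24 and Mmp9 at -6.24 in Lysfree against Undifferentiated cells.

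Of the heat shock and handling genes, a list of 16 that includes genes responding to the handling of cells, some moved in the same comparisons. In the 3 comparisons 10, 10 and 13 of the 16 were not called. In Differentiated against Undifferentiated cells 6 were called higher and 0 lower (median 0.65), with Hspd1 at 2.38, Hspb1 at 1.99 and Hspa4l at 1.84. Hspa1b (-0.61), Hspa1a (-0.46), Bag3 (-0.25) and Dnaja1 (-0.06) had negative values there, none of them called. In Lysfree against Undifferentiated cells 6 were called higher and 0 lower (median 0.79), led by Hsph1 (3.05), Hspa4l (2.19) and Hsp90aa1 (1.69), and in Lysfree against Differentiated cells 2 were higher, Hsph1 (2.02) and Hspa1b (1.41), and 1 lower, Hspd1 (-1.64; median 0.16). The summed level of the list was 1760 to 1810 FPKM in Undifferentiated, 3570 to 3680 in Differentiated and 2820 to 3060 in Lysfree libraries. Within it, Hspd1 alone went from 210 ± 6.56 FPKM in Undifferentiated to 1120 ± 10.1 FPKM in Differentiated cells. The part of these genes in the changes of the immediate early genes was not tested.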

How the data were processed

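Per the labels, RNA of the 3T3-L1 cell line was sequenced after poly A enrichment. The authors removed low-quality reads and mapped the rest to mm10 with HISAT2. The submitters' processing notes name HISAT2 2.0.5 and featureCounts 1.5.0-p3, and the strand setting and annotation release are not given in the sources used here. The authors deposited counts of reads per gene, not normalized, and FPKM for the same 54532 genes, with gene lengths and coordinates.

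From the deposited counts, edgeR 4.0.16 (glmQLFit and glmQLFTest, TMM, Benjamini-Hochberg adjustment) in R 4.3.3 was fitted per comparison to its 6 libraries, leaving out genes at 0 counts throughout (24402, 23994 and 24130 genes). The prior degrees of freedom were infinite for Differentiated against Undifferentiated, 28 for Lysfree against Undifferentiated and 15.9 for Lysfree against Differentiated. Standard errors of log2 fold changes were the change divided by the square root of F. Totals per library (median 17784064 counts) bound the precision of low genes, and intervals over libraries are SDs of 3. The smallest p of an exact permutation test of 3 against 3 is 0.1, and the p-values given are therefore those of the model over all genes.

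The named genes were the 10 members, up to 3 genes per list and comparison with the largest change among those called with a mean of at least 1 CPM, and the 3 nearest by pattern. Some genes that this rule named are not reported here. Where a symbol named more than 1 gene (Ddit3), the longer gene was used. The members and lists were chosen with earlier results of these data known. GC content was taken from GENCODE transcripts, and promoters from RefSeq. Scripts were tested on simulated data. The alternatives were DESeq2 1.42.0, other size factors and filters, a single fit of all libraries, a term for the replicate number, other fold thresholds, limma 3.58.1 on log2(FPKM + 1) and log2(FPKM + 0.1), TPM for the family sums, and leaving out each library. The values of single list genes without Lysfree 1 were added after seeing the data.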

Additional observations from a re-analysis of the deposited data

Results flagged for a closer look

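Fos and Klf4 were called in opposite directions in the media with and without lysine, against the same Undifferentiated libraries. The log2 fold change of Fos was 2.17 in Differentiated and -1.65 in Lysfree cells, and the direct test of the difference, Lysfree against Differentiated, gave -3.83 (edgeR adjusted p = 3.8e-13). The call of Fos in Lysfree against Undifferentiated cells was lost with limma on log2(FPKM + 1), at -0.85. Klf4, a zinc finger factor and immediate early gene, had -1.82 in Differentiated and 1.60 in Lysfree cells, and the direct test gave 3.41 (edgeR adjusted p = 9e-14). Klf4 stood at 23.7 ± 0.073 FPKM in Undifferentiated, 6.83 ± 0.126 FPKM in Differentiated and 69.3 ± 17.2 FPKM in Lysfree cells, and without Lysfree 1 its values in Lysfree cells were 1.76 against Undifferentiated and 3.58 against Differentiated cells.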

How the results depend on the processing

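Of the log2 fold changes of the 10 genes under the alternatives, 497 kept their direction and their side of the thresholds. A further 8 passed the thresholds only under the alternative, 5 passed them only in the fit reported, and 0 reversed. All 8 came from dropping the fold threshold. The settings that changed only the fold threshold kept the log2 fold changes of the fit reported, so these could not reverse. With no fold threshold, 9 of the 10 genes (5 with it) passed in Differentiated against Undifferentiated cells, and 122, 102 and 103 list genes (58, 43 and 50 with it) passed in the 3 comparisons, by construction. A test against a 2-fold change left 27 list genes in Lysfree against Undifferentiated cells, and with it Jun (Differentiated against Undifferentiated, adjusted p = 0.055 in edgeR) and Ier3 (Lysfree against Differentiated, 0.13) no longer passed. On log2(FPKM + 1), limma gave -0.85 for Fos and -0.52 for Fosb in Lysfree against Undifferentiated and -0.33 for Fosb in Lysfree against Differentiated cells, since the pseudocount shrinks low genes. With TPM the log2 ratio of the Fos family sums was 3.60 for Differentiated against Undifferentiated and -2.63 for Lysfree against Differentiated cells (3.69 and -2.85 in FPKM), and that of the Jun family for Differentiated against Undifferentiated was 0.38 (0.47 in FPKM). The Jun family sum in Lysfree against Undifferentiated cells was 0.11 with all libraries and 0.42 without Lysfree 1, and it turned to -0.02 without Lysfree 2 and -0.062 without Lysfree 3, so no direction is given for it; against Differentiated cells it was -0.36, and -0.04 without Lysfree 1. Leaving out single libraries kept 5, 6 and 6 of the 10 genes called in the 3 comparisons. Small differences between Differentiated and Undifferentiated cells depended on the fit. In the single edgeR fit of all 9 libraries, the adjusted p was 0.12 for Egr1, 0.077 for Jund and 0.053 for Fosb. DESeq2 gave an adjusted p of 0.07 for Fosb.

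Over all genes, 5329, 3426 and 4507 were called in the 3 comparisons, and 11260, 8428 and 9280 with no fold threshold, 2726, 1474 and 2198 with limma on log2(FPKM + 1), 3488, 2244 and 2891 with at least 10 counts in every library, and 1596 and 2657 in the last 2 comparisons in a test against a 2-fold change. With the replicate number as a block, 5, 6 and 6 of the 10 genes were called, as without it, 57, 41 and 51 list genes and 4837, 3179 and 4173 genes in all. Deviations of same-numbered libraries correlated at -0.159 to 0.03, -0.093 to 0.19 and -0.04 to 0.046 in the 3 comparisons. Those of libraries with different numbers correlated at -0.135 to 0.153, -0.232 to 0.187 and -0.055 to 0.046. The labels tie the numbers to no shared culture or day. With 3 libraries a group, these correlations cannot show whether one was shared. Low counts limit Fosb and Fos in Lysfree cells most.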
